A study of Mus musculus with 6 samples.

Results

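The SOX family was examined in whole-testis RNA through 10 of its genes: Sox3, Sox4, Sox5, Sox6, Sox8, Sox9, Sox12, Sox13, Sox18 and Sox30. They were picked by symbol as factors known from spermatogonia, Sertoli cells, spermatids and other testis cells, after their values in these data had been seen, and all 10 were found among the 23361 genes tabulated. The table holds 20 SOX family genes when Sry is counted. The other 10 (Sry, Sox1, Sox2, Sox7, Sox10, Sox11, Sox14, Sox15, Sox17 and Sox21) are given beside their relatives. The material was unsorted testis, so no value here was measured in a single cell type, and the cell types named below are background knowledge. The samples were testes of 6 C57BL/6J mice about 120 days old, all homozygous for Ret (V805A), a substitution that sensitises Ret, the receptor kinase for the growth factor GDNF, to a small-molecule inhibitor. For 9 days, 3 mice received daily injections of 1NaPP1-HCl dissolved in vehicle (saline, cremophor and ethanol, 10 microliters per gram body weight), and 3 controls received vehicle alone. Testes were taken on day 14, after 5 days without injections. No mice lacking the substitution were treated, so an effect through Ret cannot be told apart from an effect of the compound elsewhere.

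SOX proteins are transcription factors that bind the minor groove of DNA through an HMG box, the domain that defines them and that they share with SRY, the male sex-determining factor. They are sorted into lettered subgroups by the similarity of that box, and members of a subgroup often act in the same cells. In the adult mouse testis the family spans the whole tissue: SOX3 is known from undifferentiated spermatogonia, SOX8 and SOX9 from Sertoli cells, SOX5 and SOX30 from spermatocytes and spermatids, and SOX18 from endothelium.

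The libraries held between 23144295 and 43127892 fragments assigned to genes. By these totals 1 CPM (a count scaled to library size) rested on 23.1 to 43.1 fragments. The CPM values below use library sizes adjusted by TMM, so the fragments behind 1 CPM differ slightly from these. The library of inhibitor mouse 3 stood apart from the others of its group, with chi-square values of 12.1 and 13.1 per degree of freedom against inhibitor mice 1 and 2, where the remaining within-group pairs had 4.23 to 6.05. Rnase10, a gene of the epididymis, had 2 fragments in that library and 98 to 173 in the others. Values without this library are given beside the results that it moves. Ret RNA, the targeted receptor, was at 0.579 ± 0.086 CPM in inhibitor mice and 2.17 ± 0.294 CPM in controls, and Gdnf, its ligand, at 1.37 ± 0.232 and 1.27 ± 0.060 CPM (SD, n = 3 each).

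The levels of the SOX genes, given as deposited FPKM so that genes of unlike length can be set side by side, spanned a wide range. Sox30 stood highest. It was at 81.9 ± 1.11 FPKM in inhibitor mice and 85.5 ± 1.97 FPKM in controls (SD, n = 3 each), above 91.0% of the 16658 genes tested. Next came the subgroup D genes Sox5, at 17.8 ± 0.327 FPKM in inhibitor mice and 18.8 ± 0.200 FPKM in controls, and Sox6, at 14.5 ± 0.422 and 15.7 ± 0.866 FPKM. The Sertoli cell factors Sox8 and Sox9 lay in the middle, with means over the 6 mice of 6.17 and 5.63 FPKM and ranges that overlapped. Sox4 and Sox12 followed at 3.05 and 2.99 FPKM, also with overlapping ranges, and then Sox18 at 1.805 FPKM, Sox3 at 1.35 FPKM and Sox13 at 1.35 FPKM. Every other neighbouring pair in that order, down to Sox12 and Sox18, was separated in all 6 mice. The place of Sox3 at the low end differed between the groups. In inhibitor mice Sox3 was the lowest of the 10, and its range of 0.476 to 0.869 FPKM lay below that of Sox13 (1.08 to 1.45 FPKM). In controls Sox3, at 1.75 to 2.25 FPKM, lay above Sox13 (1.36 to 1.55 FPKM) and overlapped Sox18. FPKM depends on the transcript length assumed for each gene, which matters most for Sox5 and Sox6, with 14 and 16 annotated transcripts in GENCODE M21, against 1 for Sox3 or Sox30.

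**Figure D1:**
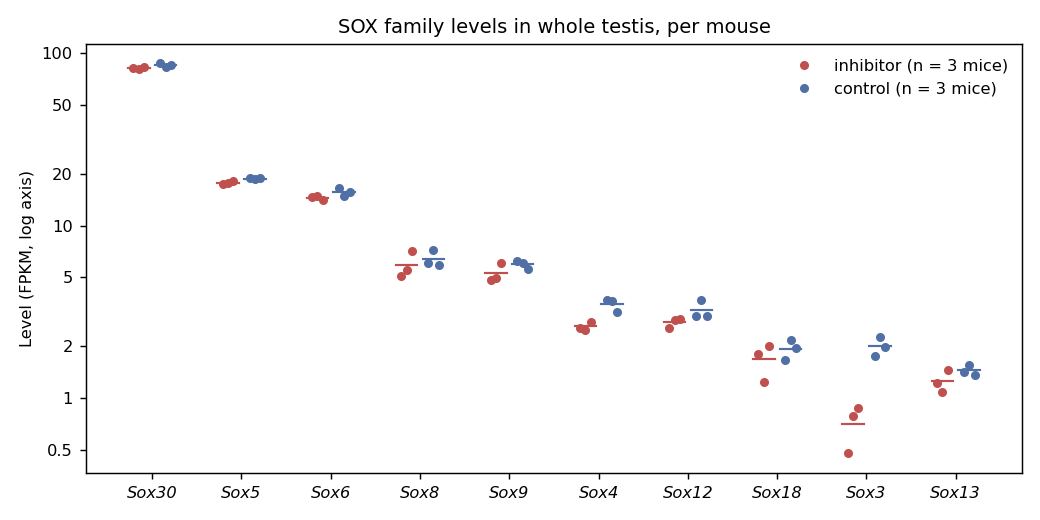
Level of each SOX gene in FPKM (vertical log axis) in each of 3 inhibitor mice and 3 control mice (points, with bars at the group means), ordered by the mean over the 6 mice. Sox30 is above 80 FPKM in every mouse, and Sox3 is the gene whose groups lie farthest apart.

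Inhibitor mice were compared with controls to see the state of the testis 5 days after the last injection of a compound aimed at Ret. Across all 16658 genes tested with edgeR, 16 were lower and 10 higher in inhibitor mice at an adjusted p threshold of 0.05, which is 0.156% of the genes. The split was 23 lower and 4 higher with library totals alone as the scaling, and 6 and 6 with the length and GC trend removed. All 10 SOX genes passed the filter on low counts. Sox3 was the 1 called gene among them, as a lower gene, against 0.096% of all genes called lower. Because the 10 were put together with this comparison already known, their values are a description and no test of the set was made. All 10 log2 fold changes (inhibitor over control) were below 0, against 51% of all tested genes, with a median of −0.19 where the median over all genes was −0.004. In 6 of them (Sox3, Sox4, Sox5, Sox6, Sox12 and Sox30) every inhibitor mouse lay below every control mouse in CPM, against 11.9% of all tested genes. The calls rested on few mice. Sox3 was no longer called without inhibitor mouse 1 or 2 or without control 1, 2 or 3, although its log2 fold change stayed between −1.58 and −1.27 in these. This loss was not particular to Sox3. Without inhibitor mouse 1 or 2 or control 1 or 2, 0 of all tested genes were called in either direction. Without control 3, 7 genes were called lower and 3 higher. Without inhibitor mouse 3, 1470 genes were called higher and 935 lower (5.54% lower), and Sox3, Sox4 and Sox9 were all called lower.

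**Figure D2:**
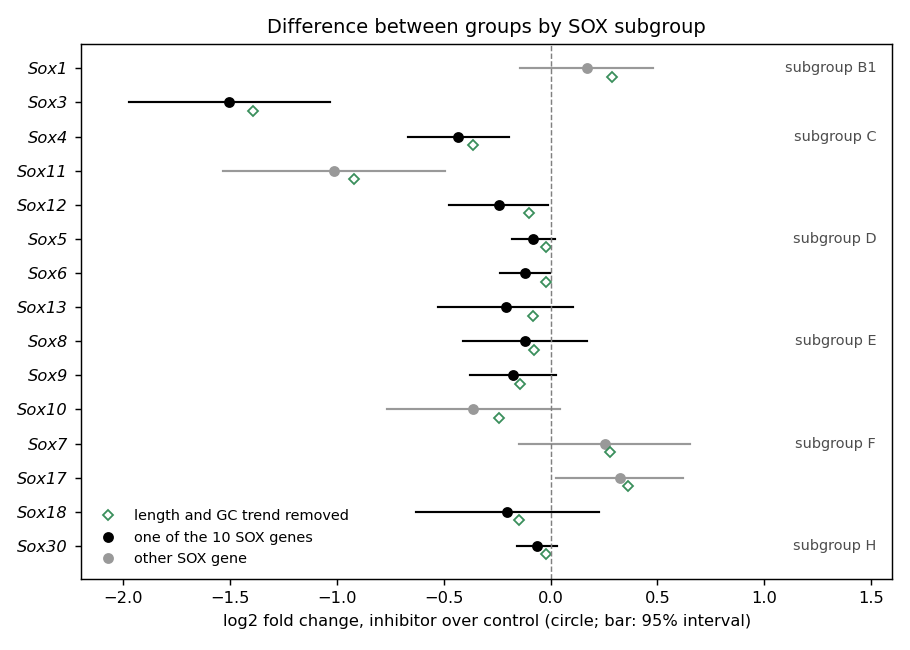
Log2 fold change of inhibitor over control mice (horizontal axis, circles with 95% intervals) for the 10 SOX genes (black) and for the other tested SOX genes except Sox14, whose interval is too wide to show (grey), grouped by subgroup from top to bottom. Open diamonds give the value after correction of each library for length and GC content. Sox3 at −1.50 and Sox11 at −1.01 lie farthest left, and Sox17 and Sox7 lie right of 0.

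Sox3, a subgroup B1 gene of undifferentiated spermatogonia whose loss impairs spermatogenesis in mice, had the largest difference of the 10. The gene has a single exon on the X chromosome (chrX:60891366-60893430, reverse strand, GRCm38). It had 26, 34 and 47 fragments in inhibitor mice 1, 2 and 3, against 83, 188 and 110 in controls 1, 2 and 3. Scaled to library size this was 0.904, 1.49 and 1.64 CPM in inhibitor mice and 3.32, 4.28 and 3.74 CPM in controls. Every inhibitor mouse lay well below every control, and inhibitor mouse 1 was the lowest. Sox3 was 2.84-fold lower in inhibitor mice, a log2 fold change of −1.50 (SE 0.216, 95% interval −1.98 to −1.03). In whole testis, fewer cells of a type and less RNA per cell cannot be told apart. Of the relatives of Sox3 in subgroup B1, Sox2 had 0 to 3 fragments per library and was not tested, while Sox1 stood at 5.28 ± 0.407 CPM in inhibitor mice and 4.69 ± 0.668 CPM in controls (SD, n = 3 each; log2 fold change 0.17, SE 0.143, edgeR adjusted p = 0.571).

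Other markers of undifferentiated spermatogonia also stood lower. The list of 15, which does not hold Sox3, had 12 genes tested, of which 11 had a negative log2 fold change and 2 were called lower (0.096% of all genes), with a median of −0.38. The called genes were Zbtb16, a transcription factor that maintains the stem cell pool, and Lin28a, an RNA-binding protein that blocks let-7 maturation. On the log2 scale Zbtb16 differed by −0.99 (SE 0.149, edgeR adjusted p = 0.032) and Lin28a by −1.13 (SE 0.188, edgeR adjusted p = 0.048). Neither was called without inhibitor mouse 1 or 2 or without control 1, 2 or 3 (edgeR adjusted p = 0.050 to 0.237). Of all tested genes, 7 were called lower without control 3 and 0 in the other fits just named. Without inhibitor mouse 3, 6 of the list were called lower, where 5.54% of all genes were. With the length and GC correction described further on, Zbtb16 was the 1 called gene. The summed level of the list was 82.5 to 96.5 CPM in inhibitor mice and 108 to 110.3 CPM in controls, lowest in inhibitor mouse 1, as for Sox3. Most of that sum came from Id4 and Etv5, at means of 34.4 and 30.1 CPM over the 6 mice (log2 fold changes −0.10 and −0.13). The 12 tested genes ran from −1.66 (Sall4) to 0.11 (Utf1), neither of these called. Among the untested members, Nanos2 had 0 fragments in each inhibitor mouse and 3 in each control, and Neurog3, a marker of progenitors that commit to differentiation, had 3, 0 and 5 fragments in inhibitor mice and 10, 14 and 5 in controls, too few for a fold. The list of differentiating spermatogonia had 10 genes tested, none called (0.156% of all tested genes were), and a median of −0.27. Its summed level stood the other way, at 613 to 652 CPM in inhibitor mice and 600.02 to 609 CPM in controls, most of it from Dmrtb1, a regulator of entry into meiosis in mice, at 558 ± 19.6 CPM in inhibitor mice and 518 ± 5.17 CPM in controls (SD, n = 3 each; log2 fold change 0.11, edgeR adjusted p = 0.211). The genes of this list with the smallest p were the DNA methyltransferase gene Dnmt3b (log2 fold change −0.53, edgeR adjusted p = 0.062) and the retinoic acid-binding protein gene Crabp1 (−0.64, edgeR adjusted p = 0.106).

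Subgroup C holds Sox4, Sox11 and Sox12, which act redundantly in progenitor cells of the mouse embryo. All of its genes had every inhibitor mouse below every control, against 11.9% of all tested genes. Sox4 (chr13:28948919-28953713, reverse strand) was at 7.13, 6.96 and 7.73 CPM in inhibitor mice 1, 2 and 3, against 10.3, 10.3 and 8.81 CPM in controls. The inhibitor mice lay close together, and control 3 was the nearest to them. The log2 fold change of Sox4 was −0.43 (SE 0.108, 95% interval −0.67 to −0.20). The gene was called lower when inhibitor mouse 3 was left out, as were 5.54% of all tested genes. Sox12 (chr2:152393611-152398063, reverse strand) was at 11.0, 12.2 and 12.3 CPM in inhibitor mice, against 12.9, 16.1 and 12.96 CPM in controls. Its groups were separated by a small margin, and control 2 was the highest (log2 fold change −0.24, SE 0.106, or −0.12 without control 2). Sox11, which is not among the 10, had 19, 23 and 30 fragments in inhibitor mice and 37, 89 and 56 in controls. This corresponded to 0.660, 1.01 and 1.05 CPM in inhibitor mice and 1.48, 2.03 and 1.91 CPM in controls (log2 fold change −1.01, SE 0.240, edgeR adjusted p = 0.093). It did not pass with all mice and passed without inhibitor mouse 3 (log2 fold change −1.15, edgeR adjusted p = 0.013). In that fit 5.54% of all tested genes were called lower. In GENCODE M21, 2616 of the 4795 exonic bases of Sox4 are shared with a long noncoding RNA on the opposite strand. Whether counting used the strand is not stated in the labels, so fragments from both may be joined.

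Subgroup E holds the Sertoli cell genes. SOX9 drives Sertoli cell fate in the embryonic gonad, SOX8 backs it up and is needed with it to keep the adult tubules, and both activate Amh in mice. Sox9 (chr11:112782224-112787760, forward strand) was at 19.4, 19.95 and 24.5 CPM in inhibitor mice 1, 2 and 3, against 24.8, 24.6 and 22.6 CPM in controls. Sox8 (chr17:25565892-25570686, reverse strand) was at 14.6, 15.7 and 20.3 CPM in inhibitor mice, against 17.3, 20.7 and 16.8 CPM in controls. For both genes inhibitor mice 1 and 2 lay below all controls, and inhibitor mouse 3 lay within the range of the controls, so the groups overlapped. The log2 fold changes were −0.17 for Sox9 (SE 0.093, 95% interval −0.38 to 0.03) and −0.12 for Sox8 (SE 0.130, 95% interval −0.41 to 0.17). Both depended on single mice. Without inhibitor mouse 3 they were −0.29 for Sox9 and −0.28 for Sox8, and Sox9 but not Sox8 was called lower (5.54% of all tested genes were). Without inhibitor mouse 1 they were −0.11 and −0.02, and Sox8 was at −0.01 without control 2. Sox10, the neural crest member of the subgroup, was low, at 2.14 ± 0.274 CPM in inhibitor mice and 2.73 ± 0.482 CPM in controls (SD, n = 3 each; edgeR adjusted p = 0.332).

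The Sertoli cell list, 18 genes without the SOX factors, moved across the mice in a similar way. Its summed level was 1603, 1578 and 1862 CPM in inhibitor mice 1, 2 and 3, against 1756, 1695 and 1652 CPM in controls. In this sum, where abundant genes weigh most, inhibitor mouse 3 was the highest of the 6. The plot beside the marker lists shows it highest for Sox8 and Sox9 within the inhibitor group. The mean log2 CPM of the tested genes was 4.75, 4.79 and 4.89 in inhibitor mice and 4.95, 4.91 and 4.85 in controls. By that measure inhibitor mouse 3 was the highest inhibitor mouse but lay within the range of the controls. Of the list's 17 tested genes 13 had a negative log2 fold change and none was called (the background is 0.156%). The list had a median of −0.08, which was −0.17 without inhibitor mouse 3 and −0.03 without inhibitor mouse 1. Its genes with the smallest p were Dmrt1, a factor that keeps Sertoli and germ cell identity in mice (log2 fold change −0.31, edgeR adjusted p = 0.103), and the cystatin gene Cst9 (0.23, edgeR adjusted p = 0.104). Amh, a textbook target of SOX9 named after its values were seen, was at 1.74, 1.84 and 1.71 CPM in inhibitor mice and 3.04, 3.03 and 2.21 CPM in controls (edgeR adjusted p = 0.117). Its groups did not overlap, as for 11.9% of all tested genes in that direction. Amh was not higher in inhibitor mouse 3, where Sox9 was the highest of its group, and a link between the 2 genes was not tested. The part of the Sertoli cell list's level in the values of Sox8 and Sox9 was not tested. The antisense gene 2810468N07Rik shares 329 exonic bases with Sox8 and had 43 to 69 fragments in inhibitor mice and 60 to 111 in controls, few beside the 359 to 581 and 433 to 910 of Sox8.

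**Figure D3:**
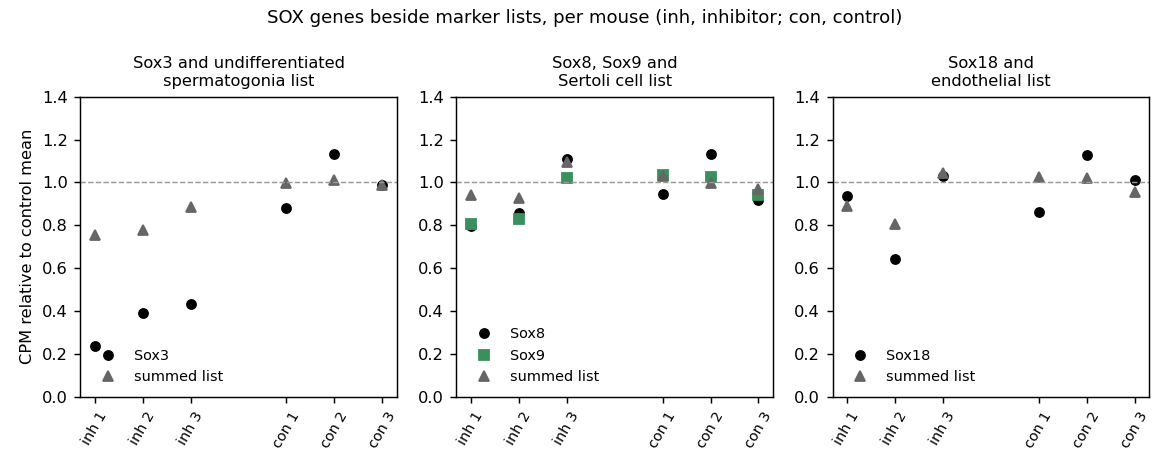
CPM relative to the mean of the controls (vertical axis) in inhibitor mice 1 to 3 and controls 1 to 3, for Sox3, Sox8, Sox9 and Sox18 and for the summed CPM of the marker list of the cells each is known from (triangles). Sox3 is below its list in each inhibitor mouse, while Sox8 and Sox9 reach control level in inhibitor mouse 3. Most of the summed list beside Sox3 comes from Id4 and Etv5, which differed little between the groups.

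The genes of meiotic and postmeiotic germ cells, Sox30 of subgroup H and Sox5 and Sox6 of subgroup D, had the highest levels and small differences. SOX30 is needed for round spermatids to develop in mice, and Sox5 and Sox6 are known to be transcribed in the mouse testis as shorter forms than in cartilage and brain. Sox30 (chr11:45980310-46017994, forward strand) was at 234, 229.7 and 235 CPM in inhibitor mice 1, 2 and 3, against 248, 239 and 244 CPM in controls. Sox5 (chr6:143828425-144781977, reverse strand) was at 126, 127 and 130 CPM in inhibitor mice, against 135, 133 and 136 CPM in controls. Both had every inhibitor mouse slightly below every control, with log2 fold changes of −0.06 for Sox30 (SE 0.043) and −0.08 for Sox5 (SE 0.046). These amount to 4.35% and 5.46% lower, and the 95% intervals, −0.16 to 0.03 and −0.18 to 0.02, hold 0. Sox6 (chr7:115470872-116038796, reverse strand) was at 119, 120 and 113 CPM in inhibitor mice and 134, 121 and 127 CPM in controls, with inhibitor mouse 2 and control 2 nearly equal (log2 fold change −0.12, SE 0.054). Sox13 (chr1:133382303-133424377, reverse strand), the remaining gene of subgroup D and known from lymphoid cells and arteries, was far lower, at 4.14, 3.67 and 4.90 CPM in inhibitor mice against 4.81, 5.29 and 4.63 CPM in controls. Its groups overlapped through inhibitor mouse 3 (log2 fold change −0.21, SE 0.145), and the value was −0.33 without that mouse and −0.12 without inhibitor mouse 2.

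The lists of later germ cells stood on the other side of 0. The median log2 fold change was 0.10 for 10 spermatocyte genes, 0.10 for 12 round spermatid genes (0.06 without inhibitor mouse 2) and 0.14 for 12 elongating spermatid genes. None was called in any of these lists, against 0.156% of all tested genes. The summed round spermatid list was 2306 to 2574 CPM in inhibitor mice and 2191 to 2375 CPM in controls, so the groups overlapped. The spermatocyte list summed to 9068 to 9166 CPM in inhibitor mice and 8343 to 8693 CPM in controls. For the elongating spermatid list the sums were 26476 to 27492 CPM and 24280 to 25225 CPM. In these 2 lists every inhibitor mouse lay above every control, as for 11% of single tested genes. Among spermatocyte genes the smallest p belonged to Tbpl1, a relative of the TATA-binding protein (log2 fold change 0.24), and the glycolytic gene Pgk2 (0.19), with edgeR adjusted p = 0.083 and 0.114. Among round spermatid genes Zpbp2, which encodes an acrosomal protein, was at 0.27 (edgeR adjusted p = 0.096). Akap4 of the sperm tail sheath (0.17) and Cabs1 (0.20) came from the elongating list, with edgeR adjusted p = 0.093 and 0.103. Catsper1, a sperm calcium channel subunit of the round spermatid list, was at −0.15 (edgeR adjusted p = 0.136). After the correction for length and GC content described further on, the list medians were −0.02, 0.004 and 0.04.

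The start regions of Sox30 and Sox5 are shown because these genes, both high in testis, differ sharply in CpG content at the starts listed for them. RefSeq start windows (GRCm38.p6) were matched for 7 of the 10 genes, Sox3, Sox9 and Sox18 being without an entry. The windows of 300 bases held 28 CpG dinucleotides in Sox30 and 3 in Sox5, against a median of 14 over 19816 windows of tabulated genes. The remaining windows held 47 (Sox12), 40 (Sox13), 21 (Sox8), 12 (Sox4) and 2 to 13 (Sox6). The start listed for Sox5 lies 834871 bases inside the gene, downstream of its first annotated exon. Whether the listed starts are used in these testes was not tested. The 250 bases before each start are printed 5′ to 3′ on the gene's own strand, with CpG dinucleotides in capitals: chr11:45980060-45980309 (forward strand) for Sox30, holding 23, and chr6:143947107-143947356 (reverse strand) for Sox5, holding 3.
Sox30: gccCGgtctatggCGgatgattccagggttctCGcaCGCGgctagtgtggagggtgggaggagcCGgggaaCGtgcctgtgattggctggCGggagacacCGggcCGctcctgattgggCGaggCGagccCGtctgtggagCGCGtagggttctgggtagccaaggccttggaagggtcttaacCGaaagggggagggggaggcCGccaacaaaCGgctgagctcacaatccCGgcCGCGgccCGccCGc
Sox5: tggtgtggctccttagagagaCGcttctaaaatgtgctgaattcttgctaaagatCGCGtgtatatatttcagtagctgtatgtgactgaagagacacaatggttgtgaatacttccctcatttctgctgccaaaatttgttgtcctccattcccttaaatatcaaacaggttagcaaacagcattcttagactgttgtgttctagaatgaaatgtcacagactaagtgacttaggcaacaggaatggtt

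Sox18 of subgroup F (chr2:181669836-181671640, reverse strand), a factor of blood and lymphatic endothelium, was at 2.61, 1.79 and 2.87 CPM in inhibitor mice 1, 2 and 3, against 2.40, 3.14 and 2.82 CPM in controls. The groups overlapped, inhibitor mouse 2 was lowest, and the log2 fold change was −0.20 (SE 0.196, 95% interval −0.63 to 0.22). Single mice moved it, to −0.04 without inhibitor mouse 2, −0.10 without control 2 and −0.34 without inhibitor mouse 3. The summed endothelial list was also lowest in inhibitor mouse 2, at 47.5 CPM, against 52.7 and 61.6 CPM in inhibitor mice 1 and 3 and 56.4 to 60.4 CPM in controls. All 10 of its genes were tested, and none was called, against 0.156% of all tested genes. The median was −0.10, or 0.001 without inhibitor mouse 2 and −0.26 without inhibitor mouse 3, with Eng, a TGF-beta co-receptor of endothelium, at −0.34 (edgeR adjusted p = 0.219) and Vwf at −0.15 (edgeR adjusted p = 0.357). The subgroup F genes outside the 10 had positive log2 fold changes. Sox17, known in mouse both from endothelium and, as a truncated form, from spermatids, was at 12.8, 10.3 and 14.7 CPM in inhibitor mice and 10.0, 11.3 and 8.81 CPM in controls (log2 fold change 0.32, SE 0.135, edgeR adjusted p = 0.242). Sox7 was at 0.25 (SE 0.184, edgeR adjusted p = 0.502). Of the other SOX genes, Sox14 had 3 to 22 fragments per library (log2 fold change −0.05, SE 0.637; edgeR adjusted p = 0.976), and Sry, Sox15 and Sox21 had 0 to 3 fragments per library and were not tested. None of the 6 tested genes outside the 10 was called, against 0.156% of all tested genes, and 3 of the 6 were below 0.

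The marker lists of the remaining cell types had no called gene, against 0.156% of all tested genes called. The median log2 fold change was −0.08 over 8 Leydig cell genes (Nr5a1 −0.17, Insl3 −0.22) and −0.22 over 7 peritubular myoid genes (Mylk −0.22, Cnn1 −0.46). It was −0.01 over 7 macrophage genes (Aif1 0.20, Lyz2 0.32). The Leydig median was 0.006 without inhibitor mouse 1 and −0.19 without inhibitor mouse 2 or 3. Without control 2 the peritubular and macrophage medians were 0.04 and 0.20, and the macrophage median was −0.08 without inhibitor mouse 3. Of the epididymal list only Ros1 (−0.09) and Rnase10 (−0.38) were tested, and their median of −0.24 turned to 0.09 without inhibitor mouse 3. Of the untested genes, Lcn5 was at 0 in every library. The edgeR adjusted p of the genes named from these lists was 0.093 to 0.888.

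Across all genes the difference between the groups followed transcript length, and the small differences above are to be read beside that trend. Among 1025 tested genes with a longest transcript of at most 1000 nt, the median log2 fold change was 0.16 and 21.4% were below 0. Among 2050 genes above 6000 nt, the class of Sox5 and Sox6, the median was −0.10, 75.8% were below 0 and 27.4% had every inhibitor mouse below every control. The SOX transcripts measured 1620 nt (Sox18) to 8668 nt (Sox6), and 6 of 10 were longer than the median of 3183 nt. Sox18 fell in a length class with a median of 0.06, and Sox3, Sox8 and Sox30 in one with a median of 0.02. The GC content of the SOX transcripts ran from 44.8% (Sox5) to 66.4% (Sox3). When each library was corrected for its trend on length and GC content, Sox3 remained called at −1.39, against 0.036% of all genes called lower, and Sox4 was at −0.36. Sox9 was at −0.14, Sox18 at −0.15, Sox12 at −0.10, Sox13 at −0.08 and Sox8 at −0.08, and Sox5, Sox6 and Sox30 came to −0.02 each. The median of the 10 was then −0.09, against −0.001 over all genes. All 10 values were still below 0, in genes chosen with their uncorrected values known. How much of each shift came from length and how much from GC content was not tested.

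**Figure D4:**
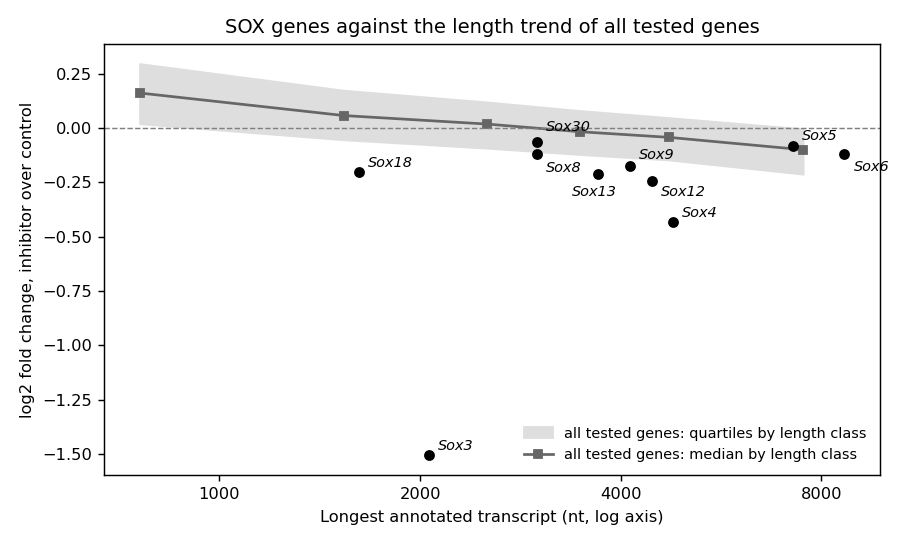
Log2 fold change of inhibitor over control mice (vertical axis) against the longest annotated transcript (horizontal log axis) for the 10 SOX genes (points) and for all tested genes as medians and quartiles in 6 length classes (squares and band). The median of all genes falls from 0.16 in the shortest class to −0.10 in the longest, with Sox5 near it. Sox5, Sox6 and Sox30 lie above the lower quartile of their length class, and the other 7 SOX genes lie below it.

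Among 13355 named genes averaging 0 or more in log2 CPM, those whose level over the 6 libraries ran most like Sox3 were Arhgap21 (Pearson r = 0.996), Rock2 (0.993) and Fkbp5 (0.992). For Sox9 they were Gprasp1 (0.999), Tmem184a (0.995) and Wisp1 (0.995), and for Sox30 they were Map6 (0.995), Gpatch8 (0.992) and Peg3 (0.986). These describe 6 libraries that share the difference between the groups and the length trend, and 161, 172 and 62 genes exceeded 0.95 for Sox3, Sox9 and Sox30. Likeness in shape is not likeness in size: Arhgap21 averaged 7.19 CPM in inhibitor mice and 8.50 CPM in controls, a far smaller difference than that of Sox3.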

How the data were processed

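Polyadenylated RNA of 6 whole testes was sequenced with a directional kit, per the labels' protocols. Per the submitters' processing notes, TopHat2 2.0.13, Cuffdiff 2.2.1, cutadapt 1.8 and build mm10 were used, without stated roles; annotation and strand setting are not stated. The authors deposited fragments per gene, which are expected counts (98.8% of 140166 values whole within 1e-06; all those of the SOX genes), rounded here. The FPKM values were deposited alongside, scaled by the authors to transcript length and library size. All 3 libraries per group are separate mice per the labels.

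The test was that of edgeR 4.0.16 under R 4.3.3 (filterByExpr, TMM, robust quasi-likelihood F-test, two-sided, Benjamini-Hochberg at 0.05 over all 16658 genes). CPM uses the TMM-scaled library sizes. Intervals come from the quasi-likelihood standard error. Positions, lengths and GC content of genes were taken from GENCODE M21 (GRCm38, the same assembly as mm10), with a length for 93.3% of tested genes, and the length and GC correction was a per-library loess offset (span 0.5). The procedure was tested on simulated data without a deviating library, so that test does not cover the effect of a library like that of inhibitor mouse 3. Alternatives used edgeR with other scalings, filters or a mouse block, DESeq2 1.42.0, and limma 3.58.1 on log2(FPKM + 1) and log2(FPKM + 0.1). An exact permutation test of 3 against 3 mice cannot go below p = 0.1, so none was run.

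The 10 genes and the marker lists were chosen with earlier results of these data known. Genes named besides them were the other SOX genes, the 2 of each list with the smallest p, and the 3 most like Sox3, Sox9 and Sox30; Amh, Neurog3, Nanos2 and Dmrtb1 were named after their values were seen.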

Additional observations from a re-analysis of the deposited data

How the results depend on the processing

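All 10 SOX genes kept a negative log2 fold change in each of 147 values over 15 alternatives. Sox3 was called in 7 of the 14 alternatives that gave it an adjusted p, and its log2 fold change ranged from −1.70 to −0.81; DESeq2 gave none for Sox3, Sox13 and Sox18, and limma did not call it on log2(FPKM + 1) (−0.81) or log2(FPKM + 0.1) (−1.40). The number of SOX genes called lower was 0 with both limma fits and 0 to 3 with single mice left out. With DESeq2 it was 0, but Sox3 could not be called there, being among 9108 genes without an adjusted p. Its DESeq2 log2 fold change was −1.50 (DESeq2 unadjusted p = 3.3e-08). Over all genes the calls were 4 higher and 23 lower with library totals alone, 58 higher and 57 lower without a filter, 3 and 7 with at least 50 counts in 3 libraries, 6 and 6 with the length and GC trend removed, 367 and 166 with DESeq2, 0 and 0 with limma on log2(FPKM + 1) and 0 and 1 on log2(FPKM + 0.1). With single mice left out they ranged from 0 to 1470 higher and 0 to 935 lower. The mouse number as a replicate block gave 0 higher and 5 lower, with Sox3 still called (log2 fold change −1.50, edgeR adjusted p = 0.032). The labels do not say that a number is shared across groups, so the numbers were not taken as pairs. Deviations of same-numbered mice from their group means in log2 CPM were correlated at 0.096, −0.066 and 0.064. Under that block Zbtb16 and Lin28a were not called (edgeR adjusted p = 0.093 for both). Sox14, with few fragments, turned positive without inhibitor mouse 1 (0.41), inhibitor mouse 2 (0.18) or control 3 (0.32), over a range of −1.29 to 0.41 with single mice left out. By CPM, which is not per length, 7 of 10 SOX genes changed place in the order of levels. The cause of these dependences was not tested. Among the tested SOX genes, Sox3, Sox7, Sox10, Sox11, Sox14 and Sox18 rested on under 200 fragments in every library, which limits their precision.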
